A study of Mus musculus with 4 samples.

Results

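The cytosolic ribosomal protein genes encode the protein part of the ribosome that translates nuclear-encoded mRNA, and they were followed here in single cells sorted from mouse aorta. Members were taken by symbol alone, as rows named Rpl or Rps with a number, at most a single letter and further digits. Rplp0, Rplp1, Rplp2 and Rpsa were added, and the Rps6 kinases and Rps19bp1 were left out. This gave 82 of the 18767 genes in the table, 33 of the small subunit and 49 of the large subunit. Rpl36al does not have this form of symbol and was read with another list. Levels were read in the 824 of 991 cells in which more than 1200 genes were detected.

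The cells were CD31+ CD45- TO-PRO-3-negative, sorted from enzymatically digested aortas, and were profiled by SORT-seq, a plate method that tags each transcript near its 3′ end with a unique molecular identifier (UMI). The libraries named s001 (202 cells) and s002 (236 cells) carry the label Jag1 ECKO, and s003 (140 cells) and s004 (246 cells) the label Jag1 ECWT. Both kinds of mice carried floxed Jag1 (Jag1 fl/fl) on a C57BL/6J background, and Jag1 encodes a ligand of the Notch receptors. Jag1 ECKO mice also carried a tamoxifen-inducible Cre under the endothelial Cdh5 promoter (CDH5 Cre-ERT2), whereas Jag1 ECWT mice lacked Cre (Cdh5 +/+). Tamoxifen was given at 2 mg per day for 5 days to male mice, which the study used at 1.5 to 3 months of age. How many mice went into a library, and whether these mice were also made hypercholesterolaemic as elsewhere in the study, is not given in the sources used here. A library is therefore 1 preparation of unknown animal number, and the spread between libraries may be technical.

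Each ribosome holds 1 copy of nearly every ribosomal protein, so the subunits are made in step. In vertebrates most of these mRNAs start with a C followed by an unbroken stretch of C and T, the 5′ terminal oligopyrimidine (TOP) motif, through which mTORC1 and the RNA-binding protein LARP1 control their translation. The genes have left many processed pseudogenes in the mouse genome, whose sequence is close to that of the parent mRNA, so that short reads can match several places.

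Start windows are shown for some of the genes named below, picked by hand. Those of Rpl32, Rps29 and Rpl29, also of low p between labels, and of the near-absent Rpl34 and Rpl30 are not shown. Each holds 10 bases before and 20 bases from a RefSeq gene start, 5′ to 3′ on the gene's strand (GRCm38.p6), and capitals mark the longest unbroken run of C and T. Rpl31, Rps26, Rpl37a, Rpl14 and Rpl28 had among the lowest p-values between genotype labels, and Rps27, Rplp2, Rpl37 and Rps15a are core subunits with almost no counts.
Rpl31, chr1:39367841-39367870, + strand: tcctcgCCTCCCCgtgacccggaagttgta
Rps26, chr10:128626487-128626516, - strand: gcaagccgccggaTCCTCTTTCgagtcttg
Rpl37a, chr1:72711250-72711279, + strand: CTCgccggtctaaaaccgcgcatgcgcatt
Rpl14, chr9:120571507-120571536, + strand: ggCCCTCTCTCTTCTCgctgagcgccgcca
Rpl28, chr7:4792955-4792984, + strand: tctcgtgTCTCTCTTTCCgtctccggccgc
Rps27, chr3:90213629-90213658, - strand: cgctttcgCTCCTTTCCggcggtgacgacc
Rplp2, chr7:141447641-141447670, + strand: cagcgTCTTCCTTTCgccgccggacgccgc
Rpl37, chr15:5116603-5116632, + strand: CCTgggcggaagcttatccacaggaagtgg
Rps15a, chr7:118116128-118116157, - strand: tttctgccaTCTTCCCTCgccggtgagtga

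The RefSeq table held 72 starts for 61 of the members, among 32851 starts in all. A run of 8 or more C and T bases stood in 33.3% of the members' 30-base windows and in 11.2% of all windows. The letters CTTTCC occurred between 20 bases before and 50 bases from the start, on either strand, in 26.4% of the members' starts and 6.48% of all starts. CTCTTT, which can overlap CTTTCC, occurred in the same window in 27.8% and 5.14%. CCGGAAG, the core letters bound by ETS factors such as GABPA, occurred on either strand within 250 bases before and 50 bases from the start in 36.1% of the members' starts and 8.86% of all starts. Among the 9 windows shown the longest run was 14 bases in Rpl14, and the RefSeq start windows of Rpl37a and Rpl37 held runs of 3. Among the core subunits near 0 counts, Rplp2, Rps27 and Rps15a had runs of 9 or 10 and Rpl37 a run of 3, while Rpl34 and Rpl30 are not shown. A link between these windows and the counts was not tested.

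Depth was 1016053, 1779042, 859280 and 1492191 summed counts in s001 to s004. The libraries share 1 set of well barcodes, 324 of 373 occurring in 2 or more libraries, so a shared barcode does not mark a shared cell. All 10 endothelial markers had counts in every library, together 9250 to 10694 counts per 1e6 summed counts (CPM). The 6 leukocyte markers listed were together at 0.98 to 10.7 CPM, each at 0 in at least 1 library. Jag1, the targeted gene, went against the labels, at 158 and 70.8 CPM in the libraries labelled Jag1 ECKO and 32.6 and 26.1 CPM in those labelled Jag1 ECWT (161, 126, 28 and 39 counts). The study reported deletion of Jag1 in Jag1 ECKO mice by qRT-PCR of aortic endothelial RNA and by en face staining. It does not say that these were the mice of the libraries. Whether the tagged 3′ end lies in the deleted part was not tested, and every direction below is given by label only.

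Ribosomal protein genes took about 6% of the counts, and slightly more in the libraries labelled Jag1 ECKO. They held 6.35% (95% Clopper-Pearson interval 6.30 to 6.40) of the counts in s001, 6.62% (6.59 to 6.66) in s002, 6.19% (6.14 to 6.24) in s003 and 5.92% (5.89 to 5.96) in s004. Both values labelled Jag1 ECKO lay above both labelled Jag1 ECWT, with means of 6.49% and 6.06% and a difference of 0.43 percentage points. A two-sided exact permutation test gave p = 0.333, the smallest value that 2 against 2 libraries allow. The intervals cover counting error only. Other large classes of RNA differed between libraries too. Rn45s, the precursor of ribosomal RNA, held 11.1%, 12.8%, 7.65% and 9.94% of counts. The mitochondrially encoded genes, at 50645, 33809, 44086 and 46850 CPM, did not follow the labels. The part of both classes in the difference was not tested. Without Rn45s and the 13 mitochondrially encoded genes in the denominator the shares were 7.58%, 7.90%, 7.04% and 6.94%, a difference of 0.75 points. Subunits kept nearly constant proportions, with large subunit genes at 55.8% to 56.6% of the ribosomal protein counts.

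Within a library the share varied from cell to cell by far more than counting gives. The share per cell was 6.56% ± 1.77 (SD, n = 202 cells) in s001, 6.83% ± 1.88 (n = 236) in s002, 6.43% ± 1.90 (n = 140) in s003 and 6.20% ± 1.88 (n = 246) in s004. Counting alone would give an SD of 0.34 to 0.39 points. The lowest cell held 2.20% and the highest 15.8%, both in s004. The SD stayed at 1.80 to 1.90 points when the 792 cells deep enough were thinned to 2500 counts each (32 shallower cells left out), where counting gives 0.48 to 0.50. After thinning, the median cell had a count from 57 to 59 of the 82 genes, against 65.5 to 68 unthinned. Median depth per cell ran from 4212 counts in s001 to 6518 in s002, and within a library the share correlated weakly and negatively with depth (Spearman's rho -0.25 to -0.19). No doublet caller was run.

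**Figure D1:**
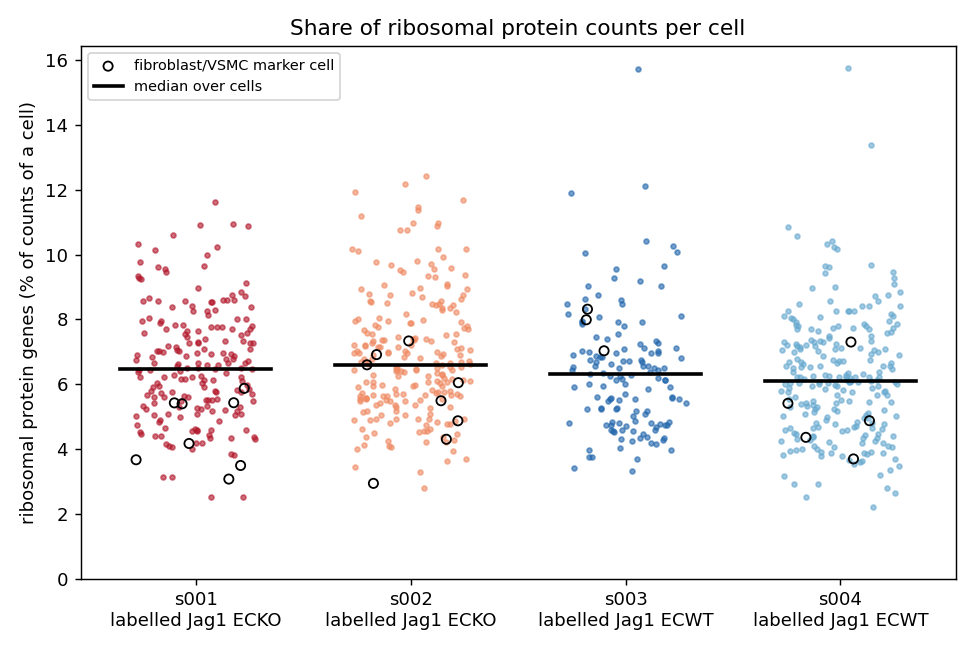
Each point is 1 cell, with its library on the x axis and the percent of its counts that fall on the 82 ribosomal protein genes on the y axis; bars are medians over cells and open circles are cells with more fibroblast and smooth muscle than endothelial marker counts. Medians are 6.48%, 6.60%, 6.30% and 6.10%, and the highest cells lie at 11.6%, 12.4%, 15.7% and 15.8%.

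Small and large subunit genes moved together from cell to cell. The small and large subunit shares of a cell correlated with rho 0.85, 0.91, 0.88 and 0.91 in s001 to s004, and with 0.79 to 0.85 after thinning. Cells of a library share its preparation, and the 2 shares have a common denominator, so these values describe the cells and carry no p. In thinned cells the ribosomal protein counts also followed the elongation factor list, which holds Eef1a1, Eef2 and Tpt1, with rho 0.63 to 0.70. They followed the mitochondrial ribosomal protein genes less closely (0.06 to 0.36) and the endothelial markers hardly at all (-0.06 to 0.02). The correlation with Rn45s was negative in every library (rho -0.49 to -0.30), and rho with the dissociation response genes, a list led by Fos and Jun, was -0.12 to 0.15.

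**Figure D2:**
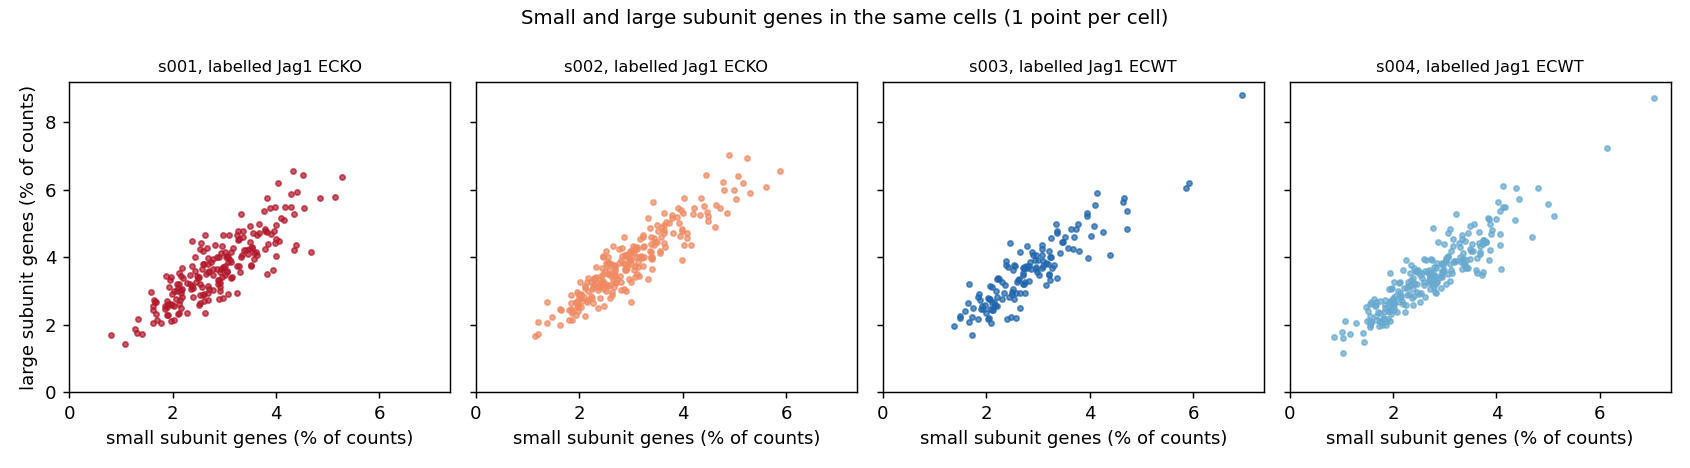
Each point is 1 cell, with the percent of its counts on small subunit genes on the x axis and on large subunit genes on the y axis, 1 panel per library. The points lie along 1 line in all 4 panels (rho 0.85 to 0.91), with single cells of s003 and s004 at the upper end.

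Most single genes also followed the rest. Across thinned cells each gene was correlated with the sum of all other ribosomal protein genes, and the median over the 74 genes with a value in every library was rho 0.32. Rps12, a small subunit protein, was highest with 0.48, 0.46, 0.46 and 0.50 in the 4 libraries. Rpl17, of the large subunit, had 0.45, 0.43, 0.44 and 0.38. Rps15a was lowest (median 0.01) beside Rpl7l1 (0.03). Across these genes rho itself was higher for genes of higher level (rho 0.82), and in sparse counts a low rho is no finding.

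The members fell into an abundant majority and a few near 0. Levels are CPM, and since 1 tag stands for 1 transcript they were not divided by gene length. Of the 82 genes, 72 had a mean of at least 61.6 CPM and 10 lay at or below 11.8 CPM, with none between. The median was 784 CPM, and 55 genes lay at 600 CPM or more. Small subunit genes had a median of 902 CPM and large subunit genes of 715 CPM.

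Among the most abundant members was Rpl10, which joins the large subunit late and lies near the tRNA sites, at 1745, 2393, 1962 and 2031 CPM in s001 to s004. Rpl13 had 1527 to 1710 CPM and Rps24, a small subunit protein mutated in Diamond-Blackfan anaemia, had 1372 to 1707 CPM. Rplp1, of the acidic stalk that recruits elongation factors, had 1672, 1376, 1386 and 1354 CPM. Rps12, Rps20, Rpl4, Rpl21 and Rpl41 were also among the 10 highest, which together held 25.6% of the ribosomal protein counts. Neighbours in this order often did not differ beyond their spread, as the values of Rpl13 and Rps24 overlapped.

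**Figure D3:**
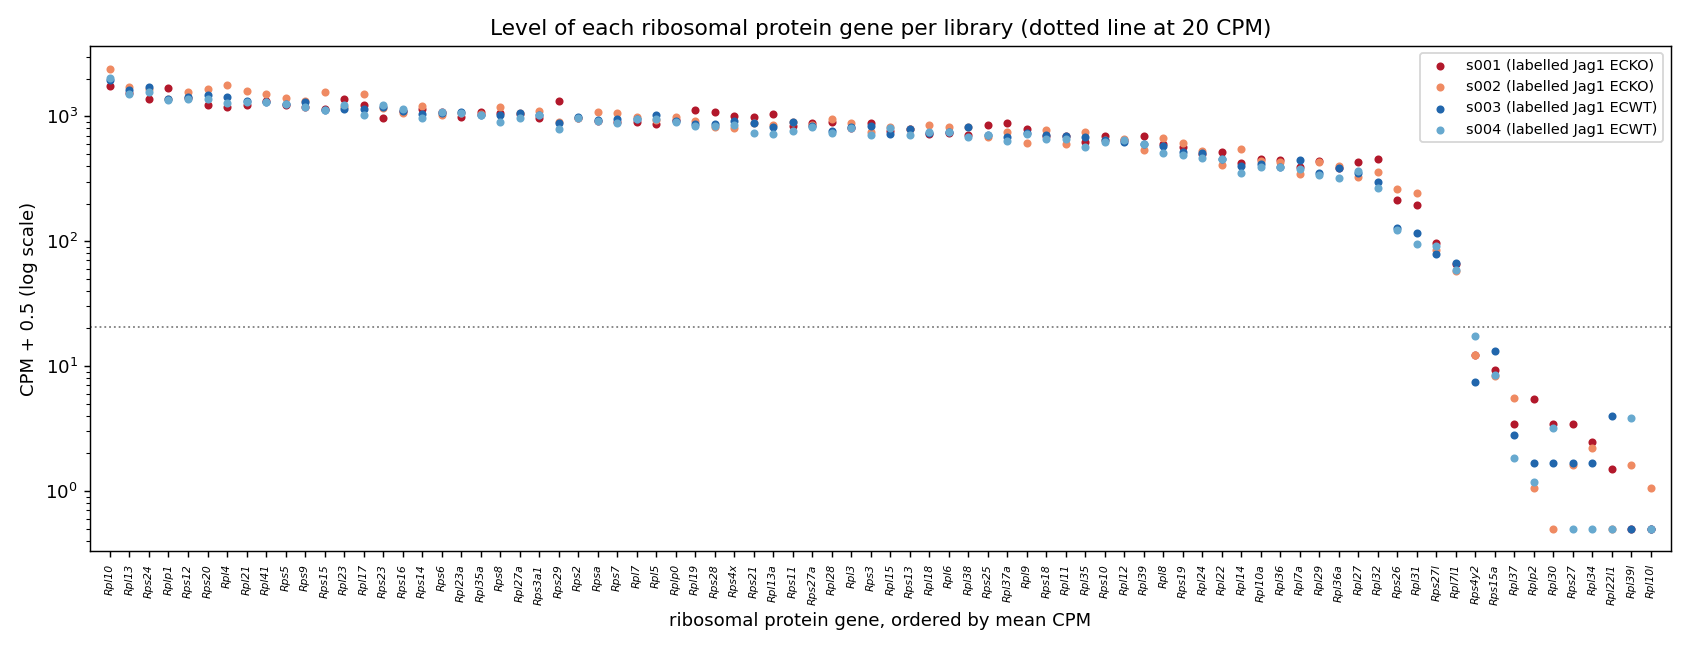
Mean-ordered levels of the genes reported here, with CPM plus 0.5 on a log scale on the y axis and 1 point per library. The levels decline smoothly from Rpl10 to Rpl7l1 (61.6 CPM) and then drop to the 10 genes under the dotted line at 20 CPM.

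Of the 10 near 0, 4 are paralogs or a pseudogene that diverged from the core gene. Rpl10l, the autosomal testis paralog of Rpl10, had 1 count in all, in s002. Rpl39l, likewise a testis form, had 0, 2, 0 and 5 counts, and Rpl22l1, a paralog of Rpl22, had 1, 0, 3 and 0. Rps4y2, which RefSeq now lists as Rps4l on chromosome 6, had 12, 21, 6 and 25 counts. The other paralogs were above the line: Rpl7l1, a nucleolar relative of Rpl7, at 65.0, 56.8, 66.3 and 58.3 CPM, and Rps27l, a p53 target related to Rps27, at 95.5, 83.8, 78.0 and 90.5 CPM.

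The other 6 are core subunits. Rpl34 had 2, 3, 1 and 0 counts in s001 to s004, Rps27 had 3, 2, 1 and 0, Rpl30 had 3, 0, 1 and 4, Rplp2 had 5, 1, 1 and 1, and Rpl37 had 3, 9, 2 and 2. Rps15a had 9, 14, 11 and 12. Rplp2 forms the stalk with Rplp1, which was among the 10 most abundant members, and Rps27 lay far below its paralog Rps27l. All 10 genes together held 166 of the 323915 ribosomal protein counts. These values are what the table lists and cannot be read as the level of the mRNA, because the table does not say where reads that match several genes were counted.

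Shared coding sequence was therefore measured, although the tags lie near the 3′ end of the transcript, which may fall outside it. The percentages in this paragraph thus do not give the part of the counted reads that match several genes. In the GENCODE vM21 annotation, 79 of the 81 members with a coding sequence (97.5%) shared at least 1 stretch of 50 bases with another gene, against 21.2% of 3996 other genes with a mean of at least 50 counts a library. The median member shared 90.1% of its 50-base stretches, and 56 members shared over 80%. Among the near-absent core genes the values were 100% for Rps27, 84.2% for Rps15a, 83.1% for Rpl30, 82.2% for Rpl37, 72.2% for Rpl34 and 66.2% for Rplp2. Abundant members had values as high, such as 100% for Rpl10, Rpl13, Rpl21 and Rps12, and rho between the percent shared and the level was 0.12 across members. Every member value below is uncertain to the extent that its reads were split among copies, which was not tested on reads.

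No member passed the test between genotype labels. The question was which ribosomal protein genes differ between the libraries labelled Jag1 ECKO and those labelled Jag1 ECWT, tested with edgeR's quasi-likelihood test on counts summed per library. Of 9730 genes tested, 0 were called at a Benjamini-Hochberg adjusted p below 0.05 (0%), and 474 (4.87%) had an unadjusted p below 0.05. Of the 82 members, 74 passed the filter on low counts, 0 were called, and 6 had an unadjusted p below 0.05 (8.11%). The count was 9 without the cells of fibroblast and smooth muscle markers described last (4.38% of all genes), and 3 with library totals in place of TMM scaling (4.72%) or with summed ribosomal protein counts as library size (5.62%), so under these 2 scalings the members, at 4.05%, lay below the background. Leaving out 1 library gave 16 such members without s001 (11.5% of all genes had such a p), 10 without s002 (13.7%), 2 without s003 (1.88%) and 2 without s004 (2.77%), so the count moved in the same direction as that over all genes, and the 10 of 74 without s002 lay at the background. DESeq2, which had no low-count filter before its fit, also called 0 and gave 4 of 82 members at an unadjusted p below 0.05 (0.859% of all genes). All 6 by edgeR were higher in the libraries labelled Jag1 ECKO, a direction in which 2.58% of all genes had such a p.

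Rpl31, a large subunit protein at the rim of the exit tunnel, had the smallest p. Its level was 195 CPM (95% exact Poisson interval 169 to 224) in s001, 245 (222 to 269) in s002, 116 (95 to 142) in s003 and 95.2 (80 to 112) in s004. The libraries labelled Jag1 ECKO lay above the others, and the counting intervals of the labels did not overlap. The log2 fold change was 1.09 ± 0.21 (SE, edgeR unadjusted p = 3.17e-04, adjusted p = 0.254).

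Rps26, a small subunit protein at the mRNA exit channel, had the same order of libraries as to label. It had 213 CPM (185 to 243) in s001, 260 (237 to 284) in s002, 127 (104 to 153) in s003 and 122 (105 to 141) in s004. The log2 fold change was 0.95 ± 0.19 (SE, edgeR unadjusted p = 5.50e-04, adjusted p = 0.263). Both genes are called without the filter on low counts (edgeR adjusted p = 1.81e-04 and 1.95e-03, where 0.330% of all genes are called) and again without s001 (where 1.80% of all genes are called) or without s002 (4.04%). Without s003 or without s004 no gene of the table was called, while the log2 fold changes were 1.19 and 0.99 for Rpl31 and 0.94 and 0.97 for Rps26. Fosb, an immediate early gene of the dissociation response, followed the same order of labels (56.1, 33.7, 8.15 and 12.7 CPM), and its part in these values was not tested.

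The other 4 stood closer to the bulk of the members. Rpl32, of the large subunit, had 456, 356, 297 and 267 CPM (log2 fold change 0.54 ± 0.16 SE, edgeR adjusted p = 0.911). Rps29, a small zinc-binding protein of the small subunit, had 1333, 899, 879 and 789 CPM, so s001 stood well above the other libraries while s002 lay next to s003. Rpl29 had 437, 428, 351 and 338 CPM, and Rpl37a, a zinc-binding large subunit protein, had 885, 743, 678 and 629 CPM. The edgeR log2 fold changes were 0.43 ± 0.18 (SE) for Rps29, 0.35 ± 0.15 for Rpl29 and 0.33 ± 0.15 for Rpl37a, each with an adjusted p of 0.911. That of Rps29 was 0.18 without s001 and 0.65 without s002.

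The next 4 genes by p, all of the large subunit, were Rpl14, Rpl28, Rpl17 and Rpl13a, with log2 fold changes of 0.40, 0.32, 0.35 and 0.30. Single libraries moved these by over 1.5 times: Rpl14 was at 0.60 without s001 and 0.15 without s002, Rpl17 at 0.53 and 0.14, and Rpl13a at 0.19 without s001. Rpl14 had 424, 544, 398 and 354 CPM and Rpl28 had 891, 944, 759 and 728 CPM. Rpl17 had 1226, 1502, 1152 and 1031 CPM and Rpl13a had 1039, 843, 825 and 724 CPM. In all 4 genes both libraries labelled Jag1 ECKO lay above the others, and none passed the test.

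**Figure D4:**
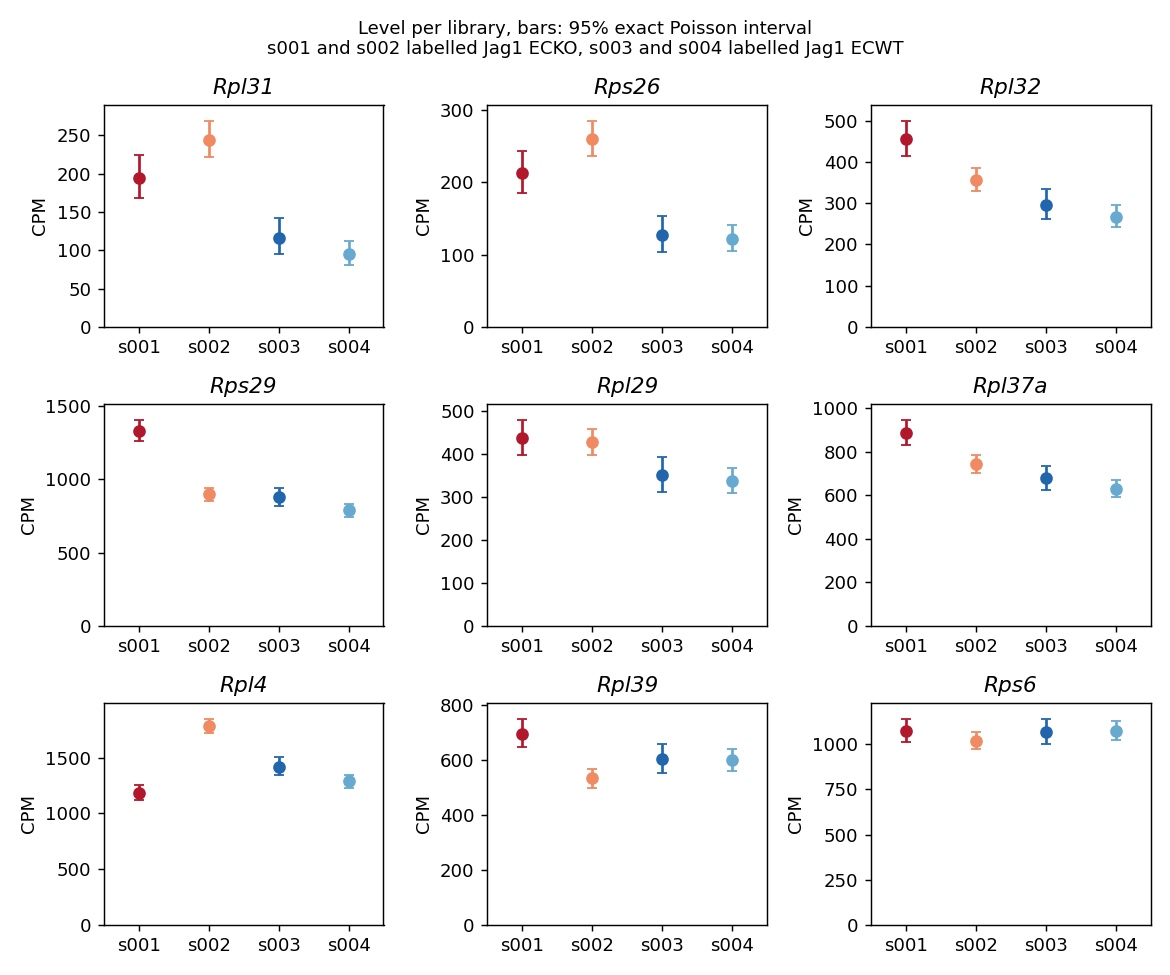
CPM per library (y axis, from 0) with 95% exact Poisson intervals for the 6 members with an edgeR unadjusted p below 0.05 between labels and for Rpl4, Rpl39 and Rps6. Rpl31 and Rps26 separate the labels (195 and 245 against 116 and 95.2 CPM for Rpl31), Rps29 stands out in s001 alone, and Rps6 lies between 1019 and 1074 CPM in all 4 libraries.

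As a group the members sat slightly higher in the libraries labelled Jag1 ECKO. Their median log2 fold change was 0.10, against -0.001 over all genes tested, with 0.09 for small and 0.11 for large subunit genes. It was 0.18 without s001 and 0.026 without s002. Of the 74 tested, 62 had a fold change above 0, where 49.9% of all genes tested did. Both libraries labelled Jag1 ECKO lay above both others in 24 members (background 16.0%) and below them in 3 (background 19.4%), namely Rpl5, Rpl23a and Rps23. Rpl5 binds 5S ribosomal RNA and, when free, the p53 ligase Mdm2; it had 870, 932, 1014 and 949 CPM. Members share a library's total and its cells, so their signs are not independent of each other. With the summed ribosomal protein counts as library size, which centres the members near 0 by construction, the median was -0.01 and that of all genes -0.12. Rps6, the substrate of the S6 kinases, had 1074, 1019, 1070 and 1074 CPM, with a log2 fold change of -0.02.

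The 2 libraries labelled Jag1 ECWT were nearly alike in their ribosomal protein genes, and the 2 labelled Jag1 ECKO were not. Over the 72 members with a mean of at least 50 counts a library, the SD of the log2 ratio of CPM was 0.10 between s003 and s004, where counting gives 0.09. It was 0.30 between s001 and s002 and 0.24 to 0.26 between libraries of different labels, where counting gives 0.07 to 0.09. The 0.30 rests in part on members not reported here. Over the 70 members reported here the SD was 0.25 between s001 and s002, 0.22 to 0.26 between different labels and again 0.10 between s003 and s004. Over the 4074 other genes at this level the SD was 0.38 between s003 and s004 and 0.54 between s001 and s002, but these genes had fewer counts, and counting gives 0.23 and 0.21. Each library is 1 preparation, so these differences have no replicate and no test.

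Each gene's part of the ribosomal protein counts was then compared between libraries. Rpl31 held 0.307%, 0.369%, 0.188% and 0.161% in s001 to s004, a highest over lowest ratio of 2.30, where the median member had 1.18. Rps26 held 0.335%, 0.392%, 0.205% and 0.206% (ratio 1.91). The ratio was 1.59 for Rpl32 and 1.58 for Rps29, and 5 of the 72 members passed 1.5.

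Rpl4, which lines the exit tunnel, was the most abundant of the variable genes, at 1181, 1783, 1419 and 1287 CPM in s001 to s004 (ratio 1.45). Rpl7a (1.40), Rpl14 (1.37), Rpl27 (1.37) and Rpl39 (1.36) followed. Rpl39, one of the shortest ribosomal proteins, had 695, 532, 602 and 598 CPM, and Rpl27 had 430, 328, 353 and 364 CPM. Rpl7a was highest in s003, with 394, 344, 449 and 379 CPM. In Rps29, Rpl39 and Rpl27 the highest library was s001, and in Rpl4, Rpl14 and Rpl10 it was s002. Rplp0, the anchor of the stalk, was among the steadiest, with 941, 988, 911 and 899 CPM and a ratio of 1.03.

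The ratio of s001 to the others went with coding length. Across the 72 members rho between the log2 ratio of CPM and the number of coding bases was -0.21 for s001 over s002, -0.39 for s001 over s003 and -0.38 for s001 over s004, so short members tended to stand relatively higher in s001. Rps29 and Rpl39 followed this, whereas Rpl41 and Rpl38, as short, had their lowest part of the ribosomal protein counts in s001 (2.10% and 1.11%). The pairs without s001 gave 0.05, -0.05 and -0.01. All values with s001 share that library, and genes are not replicates. Dissociation response genes were also highest in s001, at 5202 CPM against 2745, 3612 and 3223, as were smooth muscle markers (3270 against 1437, 351 and 1169 CPM) and red cell markers (84.6 against 0 to 1.34 CPM), and their part in these differences was not tested.

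**Figure D5:**
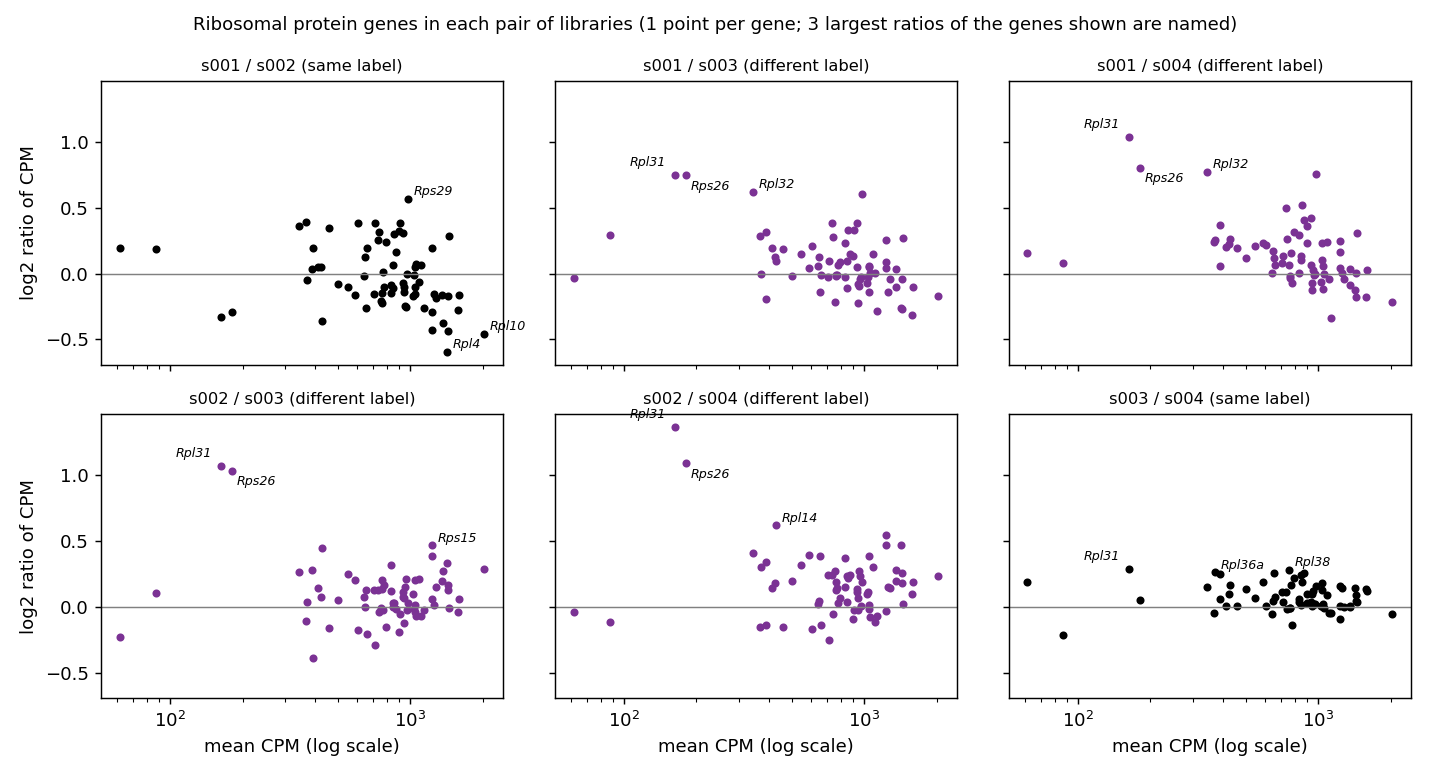
Each point is 1 member with a mean of at least 50 counts a library, for the genes reported here, with mean CPM on a log x axis and the log2 ratio of CPM between 2 libraries on the y axis, 1 panel per pair; pairs of the same label are black. The pair s003 and s004 is the tightest (SD 0.10 over the 70 genes), against 0.22 to 0.26 in the 5 other pairs, with Rpl31 and Rps26 farthest from 0 in the pairs of different labels.

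The other genes of the translation machinery did not pass the test between labels either. Fau, which encodes a small subunit protein fused to a ubiquitin-like protein, had 1029, 959, 776 and 714 CPM (log2 fold change 0.43, edgeR adjusted p = 0.911). Gnb2l1, the scaffold RACK1 of the small subunit, had 618, 689, 611 and 547 CPM. Of the 4 genes tested in the list that holds both, 0 were called and 2 had an unadjusted p below 0.05, both higher in the libraries labelled Jag1 ECKO. Over all 9730 genes tested 0 were called, 4.87% had such a p and 2.58% had it in this direction. Among 13 elongation genes 0 were called and 0 had an unadjusted p below 0.05, and Eef1a1 had 2818, 2038, 3092 and 2752 CPM. The smallest p among them was that of Btf3, at 177, 175, 228 and 228 CPM.

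Among 39 initiation factor genes 0 were called and 1, Eif3m, had an unadjusted p below 0.05, at 59.1, 56.2, 88.4 and 89.8 CPM. For this list and those that follow, the background over all 9730 genes was 0 called and 4.87% with such a p. Of 47 ribosome biogenesis genes tested, 0 were called and 1, Bop1, had such a p (27.6, 35.4, 12.8 and 16.1 CPM). Of 76 mitochondrial ribosomal protein genes, 0 were called and 3 had such a p, with Mrps28 lower (12.8, 4.50, 24.4 and 23.5 CPM) and Mrpl16 and Mrps18a higher in the libraries labelled Jag1 ECKO. Of 12 genes of mTORC1 and of the control of these mRNAs, 0 were called and 0 had such a p, with Larp1 at 170, 117, 130 and 115 CPM. The median log2 fold change was 0.28 for the 4 fusion, Rpl36al and RACK1 genes, 0.03 for elongation, 0.01 for initiation, 0.06 for biogenesis, 0.04 for the mitochondrial ribosome and 0.01 for the mTORC1 list, beside 0.10 for the ribosomal protein genes.

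A few cells in the sort carried markers of another cell type. In 24 cells (8, 8, 3 and 5 in s001 to s004) the counts of the 8 smooth muscle and 8 fibroblast markers together exceeded those of the 10 endothelial markers. Ribosomal protein genes held 4.19% of the counts in these cells of s001 against 6.50% in the other cells, 5.46% against 6.71% in s002, 7.98% against 6.16% in s003 and 4.49% against 5.96% in s004. The share was lower in 3 libraries and higher in s003, where it rests on 3 cells and 16078 counts. The mean difference was -0.80 ± 1.81 percentage points (SD, n = 4 libraries, two-sided exact sign-flip permutation test, p = 0.5, smallest possible 0.125). It was -0.30 points without s001, -0.65 without s002, -1.68 without s003 and -0.58 without s004. The marker cells were deeper than the others in s001 (median 6854.5 against 4107.5 counts) and s002 (15388 against 6420), similar in s003 (5658 against 5568) and shallower in s004 (4679 against 5220), and the part of depth in the result was not tested.

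With library as a block, edgeR called 777 of 8170 genes between the marker cells and the others (9.51%), and 0 of the 72 members tested. Of the members, 18 had an unadjusted p below 0.05, all lower in the marker cells, where 11.7% of all genes had such a p in that direction. The count was 1 without s001, 15 without s002, 16 without s003, 4 without s004, and 2 when marker counts had to reach 2 times the endothelial marker counts. Over all genes tested, the share with such a p in either direction was 13.4%, 14.5%, 19.1%, 15.7% and 19.4% in these settings, against 18.6% in the full fit. All 72 had a log2 difference below 0 (63.9% of all genes), with a median of -0.58 against -0.28 over all genes tested. Rps28, a short small subunit protein, had the smallest p (-0.97 ± 0.36 SE, edgeR adjusted p = 0.060), followed by Rpl28 (-0.88), Rps18 (-0.85), Rpl38 (-0.81), Rpl23 (-0.81) and Rps15 (-0.80). With summed ribosomal protein counts as library size, which again centres the members by construction, the median was -0.07 and 0 members had an unadjusted p below 0.05.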

How the data were processed

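CD31+ aortic cells were profiled by SORT-seq in 4 libraries, 2 per genotype label. The authors used STAR and GRCm38, and they deposited estimated counts of transcripts, which are UMI numbers corrected for chance repeats of a UMI (undone, they were whole to within 3.6e-12). The counting tool and its treatment of multiply matching reads are not given in the sources used here. The submitters' processing notes also name Seurat 3.1. Estimated counts were rounded, and summed per library over cells with more than 1200 genes. Labels were compared with edgeR 4.0.16 (TMM, filterByExpr, robust quasi-likelihood test, Benjamini-Hochberg adjustment over all genes) in R 4.3.3, with DESeq2 1.42.0 as an alternative. Only the edgeR test was tried on simulated counts, and the outcome is not given here. Marker cells were compared with library as block. Shares were compared by exact permutation. CPM is per 1e6 summed counts. Exact Poisson and Clopper-Pearson intervals (95%) cover counting error only. Promoters are RefSeq (GRCm38.p6), and shared 50-base stretches were counted in GENCODE vM21 coding sequences.

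Members and gene lists were chosen with earlier results of these data known. Named were the 10 most abundant members, the 10 of smallest p between labels, the 10 that varied most between libraries (mean of 50 or more counts), all divergent paralogs, the 6 of smallest p between marker classes, and up to 4 genes per other list. Genes named outside this rule (Rps6, Rplp0, Rpl5, Rpl23a, Rps23 and the near-absent core genes) were chosen after their values were seen. Alternatives changed the gene minimum, scaling, filter, denominator, cell weighting, cells, tool and libraries. Rpl26 and Rpl3l were not analysed here. Some members and 1 gene of another list are not reported here, and counts, medians and SDs over the members include them.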

Additional observations from a re-analysis of the deposited data

How the results depend on the processing

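The share of ribosomal protein counts was higher by label Jag1 ECKO under every alternative run, by 0.29 to 0.57 percentage points when leaving out 1 library at a time and by 0.34 to 0.75 points otherwise. The count of members called between labels was 0 in the reported fit, 2 (Rpl31 and Rps26) without the filter on low counts, and 0 under the other alternatives that kept all libraries. Leaving out each library gave 0 to 5 called members (edgeR, where the single library left in a group is assumed to vary like the others). The 5 were Rpl14, Rpl17, Rpl31, Rps15 and Rps26 without s001 (1.80% of all genes called) and included Rpl31, Rpl32, Rps26 and Rps29 without s002 (4.04%), with 0 without s003 or s004. The median log2 fold change of the members was 0.026 to 0.18 leaving out each library and -0.013 with summed ribosomal protein counts as library size. That of the marker cells was -0.073 with the same scaling, and -0.63 to -0.50 leaving out each library. The median highest over lowest ratio between libraries was 1.21 in cells thinned to 2500 counts against 1.18. The causes were not tested, beyond what fewer libraries or genes and the choice of library size change by construction. The mean difference of the share in marker cells was -1.68 to -0.30 points leaving out each library, with exact p from 0.25 to 1 in all settings. No paired analysis was possible because the replicate numbers used here follow accession order and pair no libraries. Depth limits the members under 20 CPM, of which 8 had too few counts to be tested.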
